A study of Mus musculus with 16 samples.

Results

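The genes described here make, move, sense or break down prostaglandins and related lipids in mouse endometrial epithelial organoids, 3-dimensional cultures grown from the cell layer that lines the uterus. They are 9 genes chosen by name (Pla2g4a, Ptgs1, Ptgs2, Ptges, Ptger4, Slco2a1, Ptgr1, Hpgd and Alox15), out of 23306 genes in the deposited table of normalized read counts, and all 9 are in that table. RNA was sequenced from 16 libraries, M1 to M16, in 4 groups of 4. The cKO organoids came from mice with floxed Tgfbr2 (the type II receptor of TGF-beta) and PRcre, a Cre recombinase driven from the progesterone receptor gene, and the control organoids came from floxed mice (Tgfbr2 FF), for which the labels name no Cre. All floxed alleles are thus shared, and Cre is present in the cKO group alone. Loss of Tgfbr2, presence of Cre and any effect of the Cre allele on the progesterone receptor gene therefore cannot be told apart. After 2 days in culture, E2/MPA organoids received 10 nM estradiol (E2) for 2 days, followed by 4 days of 10 nM E2 plus the synthetic progestin medroxyprogesterone acetate (MPA) at 1 µM. Vehicle organoids received vehicle for 6 days. The groups were cKO with E2/MPA (M13 to M16), cKO with vehicle (M5 to M8), control with E2/MPA (M9 to M12) and control with vehicle (M1 to M4).

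Prostaglandin synthesis begins when a phospholipase, chiefly the cytosolic enzyme encoded by Pla2g4a, frees arachidonic acid from membranes. The cyclooxygenases COX-1 (Ptgs1) and COX-2 (Ptgs2) then convert arachidonic acid to prostaglandin H2, from which synthases such as that of Ptges make prostaglandin E2. Prostaglandin E2 acts through receptors such as EP4 (Ptger4), is taken up by the transporter of Slco2a1 and is inactivated by the dehydrogenase of Hpgd and the reductase of Ptgr1, while lipoxygenases such as that of Alox15 turn arachidonic acid into hydroxylated fatty acids. In the rodent uterus prostaglandins take part in embryo implantation and decidualization, and cyclooxygenase 2 is the form known for rapid induction.

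The promoters of the 2 cyclooxygenase genes are shown because these genes catalyse the same step, and Ptgs1 passed the test for E2/MPA while Ptgs2 did not. Each sequence runs 5′ to 3′ on the plus strand, from 250 bases before to 30 bases after the RefSeq start, in build GRCm38.p6, which is not the authors' build GRCm39. Capitals mark matches on either strand to 1 of 6 short motifs. They are a half-site of the glucocorticoid and progesterone receptor class (TGTTCT) and the core of its inverted repeat (ACANNNTGT), the core of the cyclic AMP response element (TGACG), an E-box (CACGTG), a palindrome of the C/EBP family (TTGCGCAA) and a TATA box (TATAAA).
Ptgs1, chr2:36230176-36230455: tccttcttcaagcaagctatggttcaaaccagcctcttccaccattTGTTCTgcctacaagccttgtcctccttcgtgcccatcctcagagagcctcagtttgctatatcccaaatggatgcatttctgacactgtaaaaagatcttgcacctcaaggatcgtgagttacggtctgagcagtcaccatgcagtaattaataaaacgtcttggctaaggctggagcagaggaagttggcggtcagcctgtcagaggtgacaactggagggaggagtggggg
Ptgs2, chr1:150099781-150100060: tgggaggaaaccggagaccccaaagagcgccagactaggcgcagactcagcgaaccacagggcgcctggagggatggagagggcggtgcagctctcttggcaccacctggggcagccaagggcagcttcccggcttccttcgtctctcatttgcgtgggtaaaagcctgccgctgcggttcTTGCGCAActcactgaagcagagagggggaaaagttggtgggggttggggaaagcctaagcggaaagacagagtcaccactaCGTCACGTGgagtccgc
Ptgs1 held 1 match, the receptor half-site, which begins 204 bases before the start and is found in 17.9% of the 32851 windows of this length. Ptgs2 held the C/EBP palindrome 69 bases before the start, a motif in 0.18% of all windows. It also held the reverse complement of the cyclic AMP core (in 19.9% of windows) from base 14 after the start. That match overlaps an E-box, in 6.79% of windows, which begins at base 17. Neither cyclooxygenase window held the inverted repeat (6.42% of windows) or the TATA box (13.1% of windows). Bases outside the windows were not searched, and all positions count from the RefSeq start, which was not checked against other starts. Of the 9 genes, 8 had a window in the RefSeq table, and Alox15 was the other one. A match describes the letters and is no evidence of binding.

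Recovered depth was 14372111 to 20016836 reads per library. The mean log2(value + 1) of 13 epithelial markers was 13.1 to 13.2 in cKO with E2/MPA, 13.1 in cKO with vehicle, 13.0 in control with E2/MPA and 12.9 to 13.1 in control with vehicle. The least of them, Msx1, had 155 to 1446 normalized counts, and the others had 1919 or more in every library. Tgfbr2 itself averaged 4326 ± 850 normalized counts in cKO and 5356 ± 1685 in control organoids under E2/MPA, and 4325 ± 811 in cKO and 6014 ± 1467 in control organoids under vehicle (SD, n = 4 each). These libraries overlapped (limma adjusted p = 0.690 under E2/MPA and 0.833 under vehicle). The table counts the whole gene, so reads of the floxed part cannot be told apart from the rest and the level checks the genotype only in part. Fkbp5, a target of the progesterone receptor, was 809 to 1012 with E2/MPA against 89.2 to 188 with vehicle in cKO organoids, and 896 to 1498 against 82.4 to 290 in control organoids. One library of each group led it in stromal markers, M16, M8, M12 and M4: the 15 stromal markers, all in the table and none under 10 in every library, had a mean log2 level of 9.60 in M16, 8.85 in M8, 9.84 in M12 and 9.74 in M4. M9, at 8.67, and M1, at 7.81, were also high in their groups, and the remaining libraries lay between 4.66 and 6.71. These markers did not all move together. Fbln1, of the same list, was the lowest of its group in M16 (13126 normalized counts), M8 (8125), M12 (7818) and M4 (4310). Whether the libraries stem from separate animals is not in the labels, and the spread behind every p-value may therefore be technical.

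Of the 9 genes, 8 reached the level for testing, which was 10 normalized counts or more in 4 or more libraries. Hpgd did not. In control organoids E2/MPA raised 2 of these genes (Ptgs1 and Alox15) and lowered 1 (Pla2g4a) at an adjusted p under 0.05, a threshold that 5.39% of all 16509 tested genes passed upward and 3.51% passed downward. In cKO organoids it raised 1 (Ptgs1) and lowered 0, where 2.71% of all tested genes rose and 1.48% fell. The median log2 fold change of the 8 genes was 0.032 in cKO and 0.32 in control organoids, and that of all tested genes was -0.0039 in cKO and -0.00077 in control organoids. Libraries with E2/MPA and with vehicle did not overlap for 3 of the 8 genes in cKO organoids, where this held for 13.8% of all tested genes, and for 3 of the 8 in control organoids, where it held for 12.1%. The 9 genes were chosen with earlier results of these data known. The shares of all tested genes therefore give a scale and are no test of the set.

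**Figure D1:**
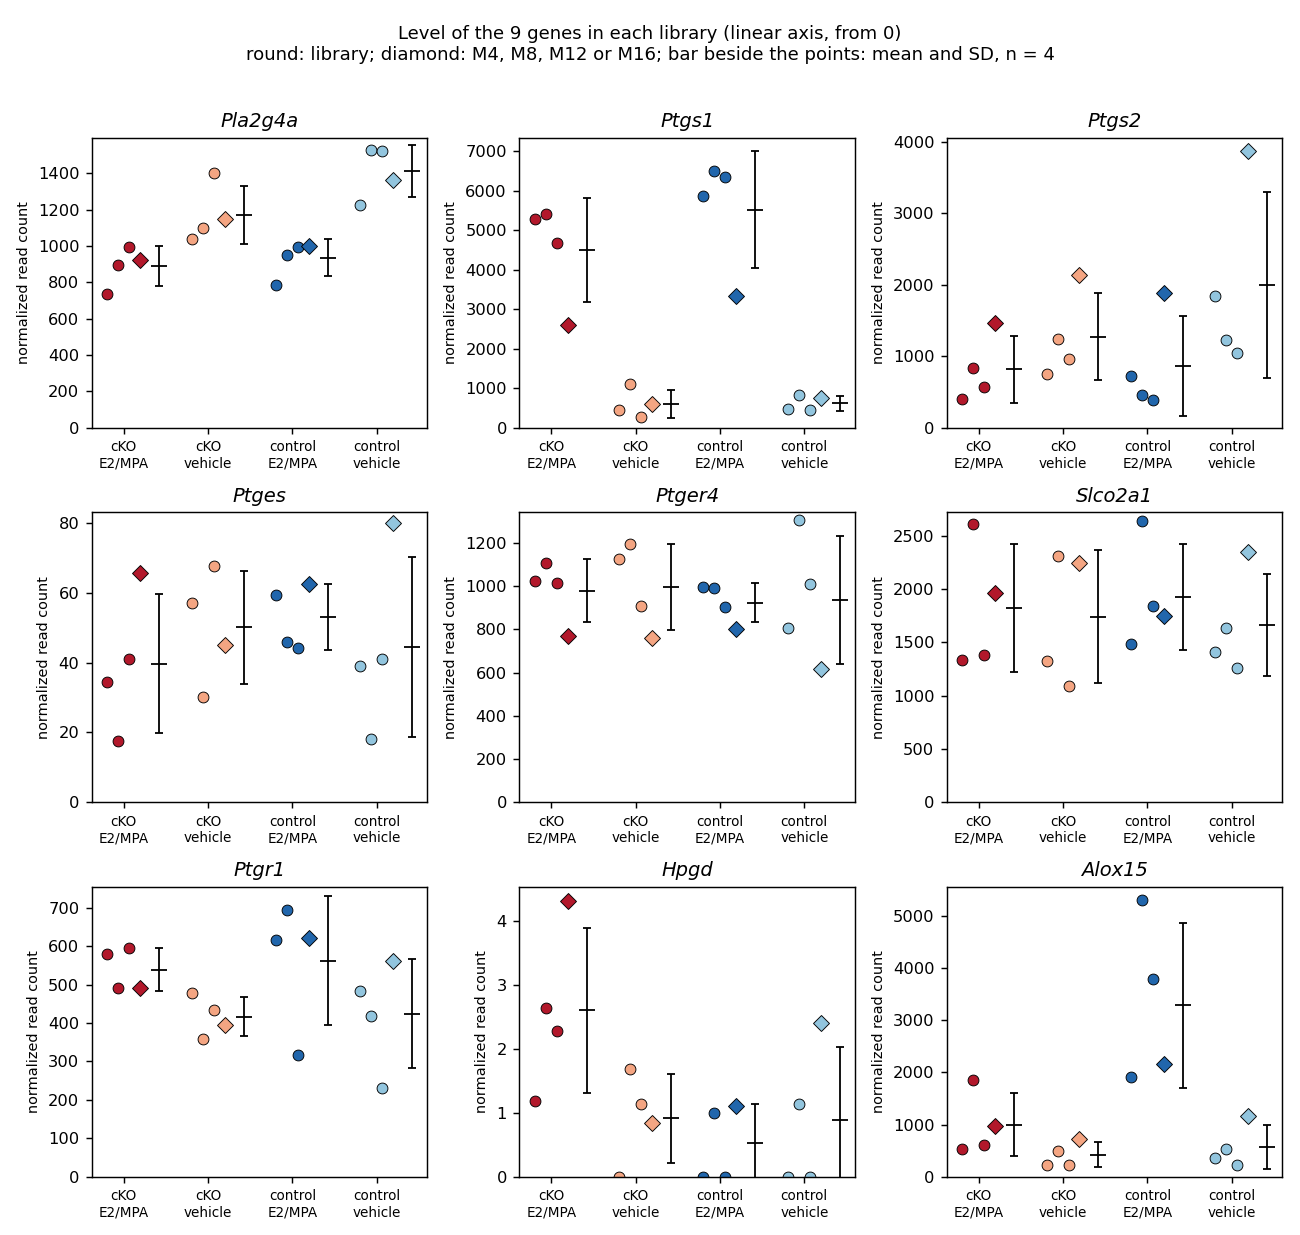
Normalized read count (linear axis from 0) of each of the 9 genes in every library, by group, with diamonds for M4, M8, M12 and M16 and with the mean and SD of 4 libraries beside the points. Ptgs1 lay at 2590 or above in every library with E2/MPA and at 1096 or below in every library with vehicle, while the highest Ptgs2 value of each group is a diamond.

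**Figure D2:**
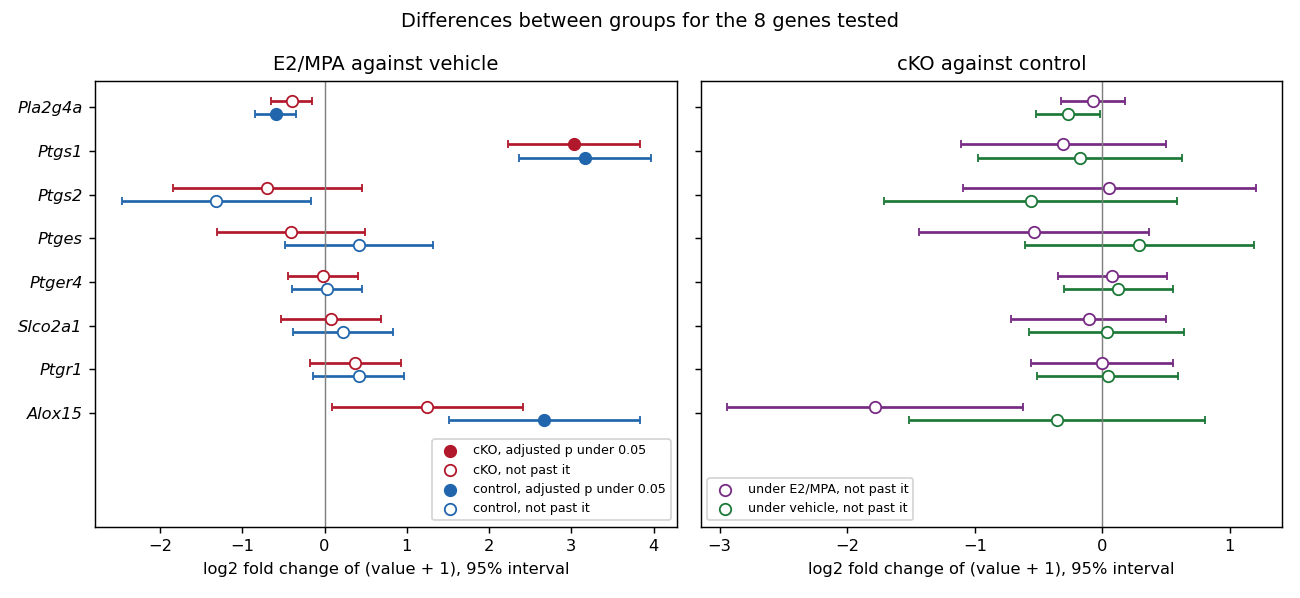
Log2 fold change of (value + 1) with its 95% interval for the 8 tested genes, for E2/MPA against vehicle in cKO and control organoids (left) and for cKO against control organoids under E2/MPA and vehicle (right). Filled points passed an adjusted p of 0.05. Ptgs1 passed in both genotypes, Pla2g4a and Alox15 passed in control organoids, and the right panel holds no filled point.

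Pla2g4a, which encodes the cytosolic phospholipase A2 that frees arachidonic acid, was lower with E2/MPA. In cKO organoids its normalized counts were 735, 896, 997 and 925 with E2/MPA, against 1040, 1098, 1403 and 1149 with vehicle. In control organoids they were 785, 952, 997 and 1003 with E2/MPA, against 1228, 1528, 1523 and 1364 with vehicle. Every library with E2/MPA lay below every library with vehicle of its genotype. Pla2g4a fell by 0.60 on the log2 scale in control organoids (SE 0.12, limma adjusted p = 0.00607) to 0.662 times the vehicle mean. In cKO organoids the log2 fold change was -0.40 (SE 0.12, limma adjusted p = 0.0737), which did not pass. That call passed with DESeq2 (adjusted p = 0.0246), and also with a random block that ties libraries whose numbers differ by 8 (limma adjusted p = 0.00224), a pairing that the labels do not state. It passed too without M1, M4, M8, M9, M12 and M16 (limma adjusted p = 0.0433), a choice made after the marker levels were seen that leaves 2 libraries in each control group. The coefficient of variation of Pla2g4a was 10.2% to 13.6% in the 4 groups.

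Ptgs1, the gene of cyclooxygenase 1, had the largest fold change of the 8 tested genes in both genotypes. Its normalized counts in cKO organoids were 5292, 5415, 4676 and 2590 with E2/MPA, against 441, 1096, 272 and 587 with vehicle. In control organoids they were 5874, 6508, 6351 and 3333 with E2/MPA, against 467, 822, 443 and 743 with vehicle. The groups did not overlap, and the lowest library with E2/MPA in each genotype was the one with the most stromal marker signal, M16 and M12. Ptgs1 rose by 3.03 on the log2 scale in cKO (SE 0.38, limma adjusted p = 3.84e-04) and by 3.16 in control organoids (SE 0.38, limma adjusted p = 1.66e-04). The fitted folds were 8.17 in cKO and 8.93 in control organoids. Ordered by p it stood at place 36 of the 16509 tested genes in cKO and at place 52 in control organoids. Because these are bulk libraries, more cells that express a gene and more RNA per cell cannot be told apart, here and below.

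Ptgs2, the gene of cyclooxygenase 2, went the other way in its means, and its libraries varied widely. In cKO organoids the normalized counts were 400, 839, 562 and 1462 with E2/MPA, against 752, 1241, 957 and 2137 with vehicle. In control organoids they were 716, 454, 386 and 1881 with E2/MPA, against 1840, 1226, 1038 and 3868 with vehicle. The fourth value of each group is library M16, M8, M12 or M4, and it was the highest of its group every time. The log2 fold change was -0.70 in cKO (SE 0.54, limma adjusted p = 0.541) and -1.31 in control organoids (SE 0.54, limma adjusted p = 0.148), and neither passed. Without M4, M8, M12 and M16 the control value was -1.40 and passed (limma adjusted p = 0.0121), and without M12 alone it was -1.79 and passed (limma adjusted p = 0.0295). Leaving out M1 and M9 as well gave -1.43 (limma adjusted p = 0.00818). With the block of libraries 8 numbers apart it passed as well (limma adjusted p = 0.00604). What the stromal markers contribute to the Ptgs2 level was not tested.

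**Figure D3:**
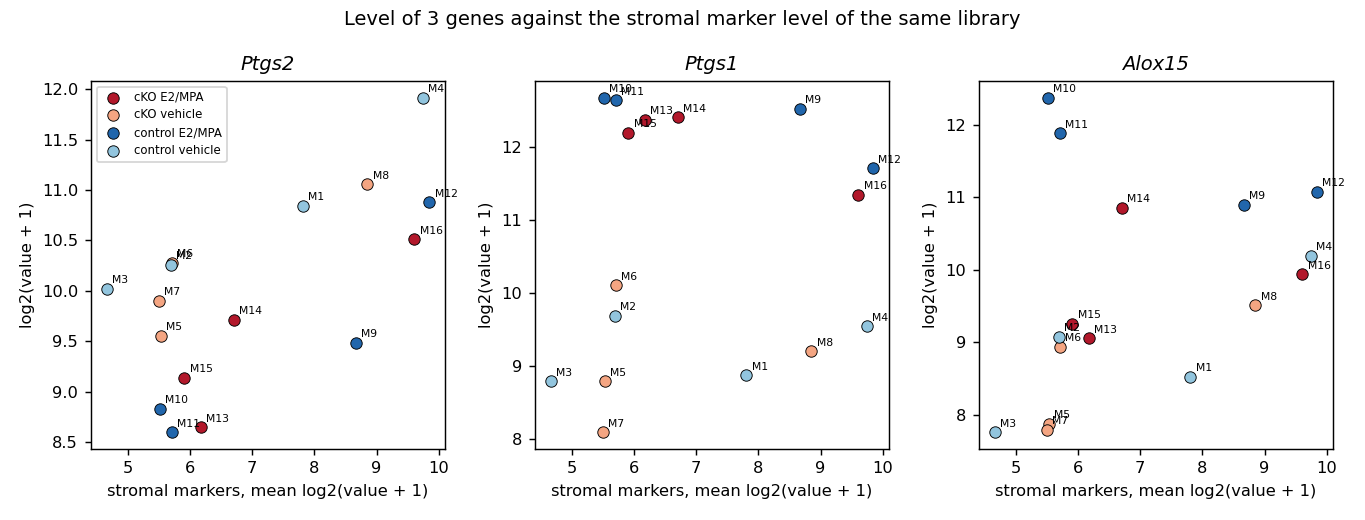
Level of Ptgs2, Ptgs1 and Alox15 as log2(value + 1) against the mean log2(value + 1) of 15 stromal markers in the same library, 1 labelled point per library, coloured by group. M4, M8, M12 and M16 lie at the right edge of each group and have its highest Ptgs2. Alox15 is highest in M4 and M8 in the vehicle groups but in M14 and M10, at stromal marker levels of 6.71 and 5.51, in the groups with E2/MPA.

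Per kilobase of exon, a scale on which genes can be set side by side, the balance of the 2 cyclooxygenase transcripts turned over. Ptgs1 averaged 1157 ± 337 normalized reads per kilobase with E2/MPA and 154 ± 91.5 with vehicle in cKO organoids, and 1420 ± 381 with E2/MPA and 159 ± 49.4 with vehicle in control organoids (SD, n = 4 each). Ptgs2 averaged 178 ± 102 with E2/MPA and 278 ± 133 with vehicle in cKO organoids, and 188 ± 152 with E2/MPA and 435 ± 283 with vehicle in control organoids on the same scale. Ptgs2 therefore made up 6.02%, 11.6%, 9.25% and 32.4% of both transcripts in the cKO libraries with E2/MPA, against 59.1%, 49.0%, 74.9% and 75.5% in those with vehicle. In control organoids its share was 9.37%, 5.59%, 4.91% and 32.4% with E2/MPA, against 77.0%, 55.9%, 66.5% and 81.5% with vehicle. No library with E2/MPA reached the lowest vehicle library of its genotype, and M16 and M12 were the highest libraries with E2/MPA. Averages were 14.8% ± 11.9 with E2/MPA and 64.6% ± 12.9 with vehicle in cKO organoids, and 13.1% ± 13.0 with E2/MPA and 70.2% ± 11.4 with vehicle in control organoids (SD, n = 4 each). The share is given as a description with no test, since it is built from the same values as the 2 genes above.

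**Figure D4:**
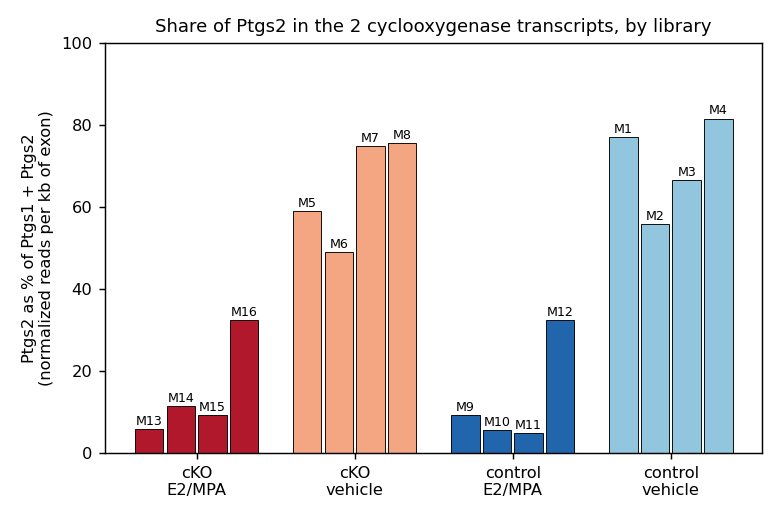
Ptgs2 as a percentage of Ptgs1 plus Ptgs2, each in normalized reads per kilobase of exon, 1 bar per library and 4 libraries per group. Bars with E2/MPA stay at 32.4% or below, and bars with vehicle stay at 49.0% or above.

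Ptges, which encodes the inducible microsomal prostaglandin E synthase, was scarce. It had 17.6 to 65.6 normalized counts in cKO with E2/MPA, 30.2 to 67.8 in cKO with vehicle, 44.1 to 62.7 in control with E2/MPA and 18.1 to 80.0 in control with vehicle. At 10.1 to 13.5 normalized reads per kilobase of exon on average, it lay far under both cyclooxygenases. The log2 fold change with E2/MPA was -0.41 (95% interval -1.31 to 0.49) in cKO and 0.41 (95% interval -0.49 to 1.31) in control organoids. Each interval includes both no change and a change of more than 2-fold.

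Ptger4 (the prostaglandin E2 receptor EP4) and Slco2a1 (the prostaglandin uptake transporter) had overlapping levels in all 4 groups. Ptger4 averaged 979 ± 146 normalized counts in cKO with E2/MPA, 998 ± 199 in cKO with vehicle, 923 ± 90.4 in control with E2/MPA and 935 ± 296 in control with vehicle (SD, n = 4 each). Its log2 fold change with E2/MPA was -0.018 in cKO (95% interval -0.44 to 0.41) and 0.032 in control organoids (95% interval -0.39 to 0.46). In contrast to Ptgs2, Ptger4 was lowest in M16, M8, M12 and M4 of their groups, at 769, 761, 803 and 615 normalized counts. Slco2a1 averaged 1821 ± 599 in cKO with E2/MPA, 1742 ± 627 in cKO with vehicle, 1930 ± 499 in control with E2/MPA and 1663 ± 481 in control with vehicle. Its log2 fold change with E2/MPA was 0.083 in cKO (95% interval -0.53 to 0.69) and 0.22 in control organoids (95% interval -0.39 to 0.83). None of the orders among these groups exceeded the spread between libraries.

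Inactivation was represented by 2 genes of very unequal level. Ptgr1, a reductase that acts on prostaglandin and leukotriene products, had 581, 490, 594 and 491 normalized counts with E2/MPA against 478, 360, 435 and 395 with vehicle in cKO organoids. The cKO groups did not overlap, yet the log2 fold change of 0.37 did not pass (SE 0.26, limma adjusted p = 0.491). In control organoids the values were 616, 694, 315 and 620 with E2/MPA against 484, 419, 230 and 562 with vehicle, and here the groups overlapped (log2 fold change 0.42, SE 0.26, limma adjusted p = 0.352). M3 and M11 were the lowest libraries of their groups. Hpgd, the dehydrogenase that begins the breakdown of prostaglandin E2, was almost without reads: 10 reads over the 4 libraries of cKO with E2/MPA, 4 in cKO with vehicle, 2 in control with E2/MPA and 4 in control with vehicle. No library held more than 4 Hpgd reads, so no fold is given.

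Alox15, which encodes the arachidonate 15-lipoxygenase (a 12/15-lipoxygenase in mice), rose in control organoids. Its normalized counts in cKO organoids were 532, 1855, 611 and 980 with E2/MPA, against 234, 491, 221 and 728 with vehicle. In control organoids they were 1903, 5301, 3785 and 2155 with E2/MPA, against 368, 540, 216 and 1169 with vehicle. Control libraries with E2/MPA lay above all others, cKO libraries with E2/MPA overlapped with cKO vehicle, and the highest values were in M10 and M11. Alox15 rose by 2.67 on the log2 scale in control organoids (SE 0.54, limma adjusted p = 0.00718). In cKO organoids the log2 fold change was 1.25 (SE 0.54, limma adjusted p = 0.233), which passed only with the block of libraries 8 numbers apart (limma adjusted p = 0.0487). Without M4, M8, M12 and M16 the changes were 1.52 in cKO (limma adjusted p = 0.121) and 3.26 in control organoids (limma adjusted p = 0.00198). Macrophages of some mouse tissues are known for high Alox15. The 13 macrophage markers, all in the table, summed to 17458 to 25692 normalized counts in cKO with E2/MPA, 11994 to 32007 in cKO with vehicle, 15603 to 34286 in control with E2/MPA and 18531 to 35644 in control with vehicle. The markers did not move as one: M10 had 12517 normalized counts of Cd14 and 815 of Lyz2, and M4 had 4137 of Cd14 and 12161 of Lyz2. The mean log2 level of the 13 markers was the highest of the group in M14 (7.13) and M4 (9.07), which also had the most Alox15 of their groups. In control with E2/MPA it was the lowest in M10 (5.96), which had the most Alox15, and the highest in M12 (9.73). In cKO with vehicle it was 5.64 in M8, which had the most Alox15, and 6.68 in M6. What macrophage or stromal cells contribute to the Alox15 level was not tested.

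The genotype comparison asks whether organoids of Tgfbr2 cKO mice differ from controls under the same treatment. Under E2/MPA, Alox15 averaged 994 ± 606 normalized counts in cKO and 3286 ± 1581 in control organoids (SD, n = 4 each), and the libraries of the groups did not overlap. The log2 fold change was -1.78 (95% interval -2.94 to -0.62), with an unadjusted p of 0.00525 that did not pass over all genes (limma adjusted p = 0.252, and 0.0207 to 0.617 over the alternatives). It passed under 1 alternative, added after the marker levels were seen, which left out M1, M4, M8, M9, M12 and M16 and so kept 2 control libraries (log2 fold change -2.40, limma adjusted p = 0.0207). That alternative called 1394 of all tested genes in this comparison. With all libraries, Alox15 was the only one of the 8 tested genes without overlap under E2/MPA, where 6.17% of all tested genes had none. Under vehicle no gene of the 8 was free of overlap, against 3.01% of all tested genes. The difference of the E2/MPA effect between genotypes, an interaction term, was -1.42 for Alox15 (95% interval -3.06 to 0.22, unadjusted p = 0.0847, limma adjusted p = 1.00), so a difference in response was not established. For Ptgs1 the interaction was -0.13 (95% interval -1.26 to 1.00), for Ptgs2 0.62 (95% interval -1.01 to 2.24) and for Pla2g4a 0.20 (95% interval -0.16 to 0.55).

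With all libraries, none of the 8 genes passed the limma test between genotypes, and few genes of the table did. Under E2/MPA 0.00606% of the tested genes passed, 1 gene of 16509, and under vehicle and for the interaction 0% passed. At an unadjusted p under 0.05 the counts over all genes were 1794 under E2/MPA, 984 under vehicle and 309 for the interaction, and among the 8 genes they were 1 (Alox15), 1 (Pla2g4a) and 0. DESeq2 called 185 genes under E2/MPA, 14 under vehicle and 0 for the interaction, and edgeR called 1, 0 and 0, with 0 of the 8 genes among any of these. Under vehicle Pla2g4a averaged 1172 ± 160 normalized counts in cKO and 1411 ± 144 in control organoids (SD, n = 4 each), a log2 fold change of -0.27 (95% interval -0.52 to -0.019, unadjusted p = 0.0366, limma adjusted p = 0.827). Pgr, the progesterone receptor, averaged 1611 ± 83.6 in cKO and 1885 ± 424 in control organoids under E2/MPA, and 3217 ± 277 in cKO and 5134 ± 1296 in control organoids under vehicle. Cre is driven from this gene in cKO organoids alone, and the part of Pgr in these comparisons was not tested.

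Beyond these 9 genes, of 66 further genes listed by role, 58 are in the table and 46 were tested. With E2/MPA 3 rose and 1 fell in cKO organoids, and 3 rose and 2 fell in control organoids, while 0 passed between genotypes or for the interaction. Over all tested genes 2.71% rose and 1.48% fell in cKO organoids, and 5.39% rose and 3.51% fell in control organoids. Their median log2 fold change was 0.040 in cKO and 0.11 in control organoids, against -0.0039 in cKO and -0.00077 in control organoids over all tested genes. With the block of libraries 8 numbers apart, 8 of the 46 rose and 3 fell in cKO organoids (9.99% and 8.77% of all tested genes), and 8 rose and 6 fell in control organoids (14.3% and 12.8%). The other 8 of the 66 listed genes were not found in the table, and the rest of the 58 did not reach the level for testing. Of the called genes, Pla2g5, Cysltr2 and, with the block, Alox5 reached that level through the treatment in which each was high. The lists were chosen with earlier results of these data known.

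The 3 genes that rose, Pla2g5, Mgll and Lpcat3, did so in both genotypes. They are on the list for the release of arachidonic acid, though Lpcat3 acts the other way. So few genes say nothing about that step as a whole. Pla2g5, a secreted phospholipase A2, had 30.9, 27.3, 28.5 and 11.8 normalized counts with E2/MPA against 3.37, 4.20, 5.65 and 5.86 with vehicle in cKO organoids. In control organoids it had 33.2, 63.0, 73.5 and 11.0 with E2/MPA against 0.978, 4.52, 3.27 and 7.20 with vehicle. The groups did not overlap, and M16 and M12 were again the lowest with E2/MPA. Pla2g5 rose by 2.09 on the log2 scale in cKO (SE 0.55, limma adjusted p = 0.0462) and by 3.08 in control organoids (SE 0.55, limma adjusted p = 0.00321), at low counts on a scale that understates such changes. Every library with vehicle lay under 10, so Pla2g5 reached the level for testing only through its libraries with E2/MPA. Its calls are therefore not independent of the filter. Mgll, the monoacylglycerol lipase that yields arachidonic acid from an endocannabinoid, averaged 4513 with E2/MPA and 1947 with vehicle in cKO organoids, and 6346 with E2/MPA and 2145 with vehicle in control organoids. It rose by 1.26 in cKO (SE 0.24, limma adjusted p = 0.00798) and by 1.59 in control organoids (SE 0.24, limma adjusted p = 9.80e-04). Lpcat3, which returns arachidonic acid to phospholipids, rose by 0.36 in cKO (SE 0.075, limma adjusted p = 0.0125) and by 0.30 in control organoids (SE 0.075, limma adjusted p = 0.0207). Among genes that fell, the calcium-independent phospholipase gene Pla2g6 fell by 0.36 in cKO organoids (SE 0.093, limma adjusted p = 0.0426), against a log2 fold change of -0.23 in control organoids (limma adjusted p = 0.132). The transporter gene Abcc1 fell by 0.40 in control organoids (SE 0.12, limma adjusted p = 0.0472), against -0.36 in cKO (limma adjusted p = 0.108). Cysltr2, a receptor of cysteinyl leukotrienes, averaged 7.79 with E2/MPA and 33.8 with vehicle in cKO organoids, and 6.09 with E2/MPA and 23.0 with vehicle in control organoids. It fell by 1.94 on the log2 scale in control organoids (SE 0.53, limma adjusted p = 0.0331), and the value in cKO was -1.91 (limma adjusted p = 0.0563). Cysltr2 lay at 11.2 or above in every library with vehicle. With E2/MPA it reached 10 only in M12 (11.0) and M13 (11.9). It thus reached the level for testing through its libraries with vehicle, and its calls are not independent of the filter.

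**Figure D5:**
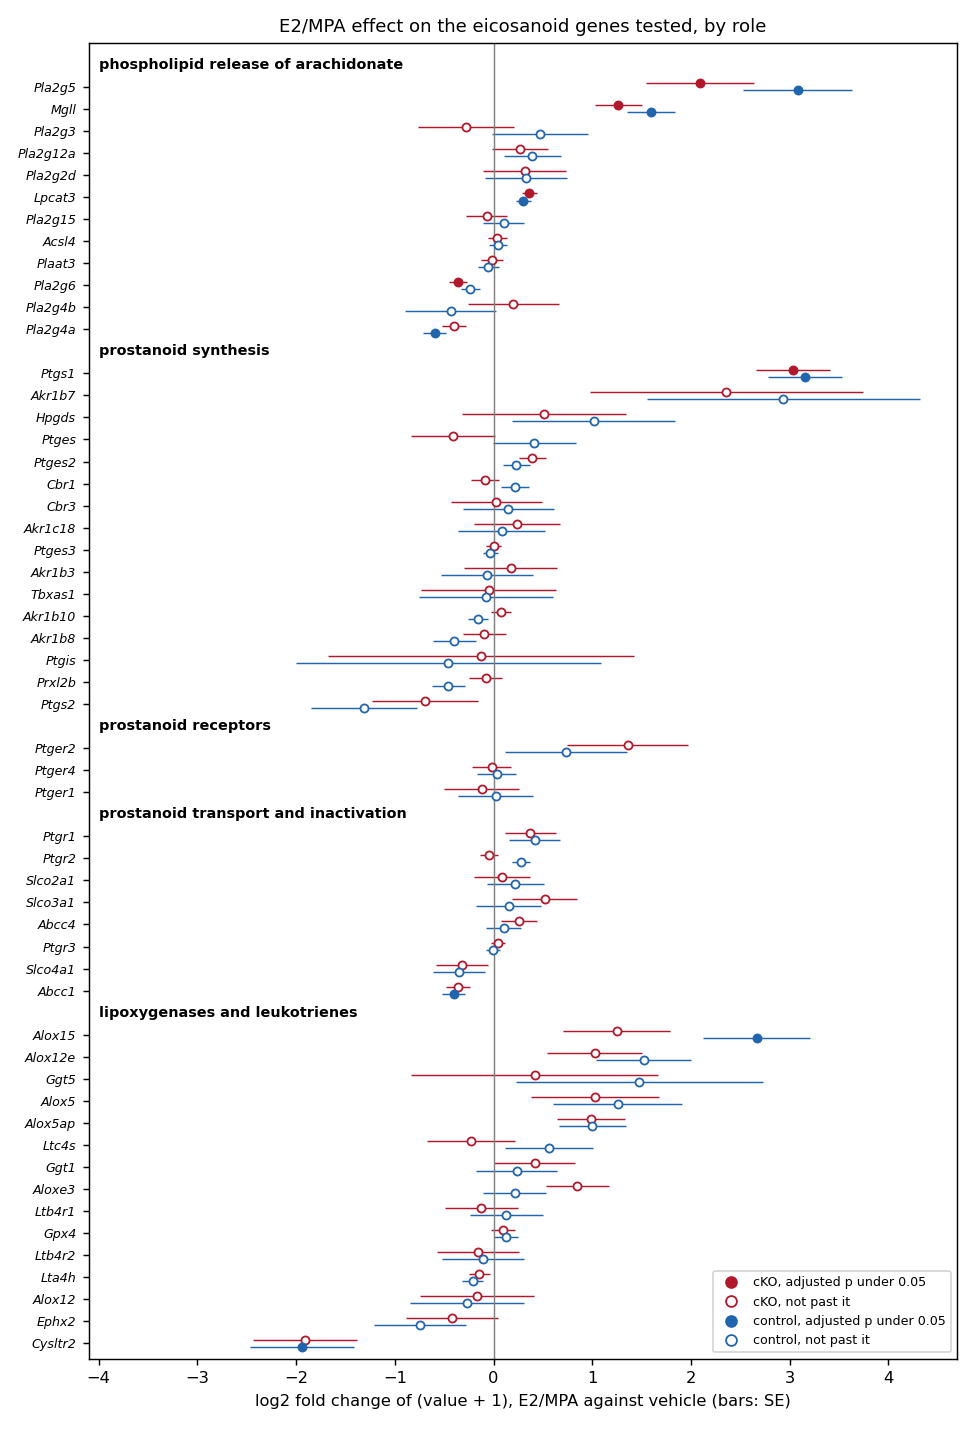
Log2 fold change of (value + 1), E2/MPA against vehicle, with SE bars, for every tested gene of the 5 roles including the 8 described above, in cKO (red) and control (blue) organoids. Filled points passed an adjusted p of 0.05. Filled points to the right are Pla2g5, Mgll, Lpcat3, Ptgs1 and Alox15, and those to the left are Pla2g6, Pla2g4a, Abcc1 and Cysltr2.

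Counts by role are small and are to be read against the same shares of all tested genes, 2.71% up and 1.48% down in cKO and 5.39% up and 3.51% down in control organoids. The list for the release of arachidonic acid held 12 tested genes including Pla2g4a and Lpcat3. Of these, 3 rose and 1 fell in cKO and 3 rose and 1 fell in control organoids. Pla2g5 is 1 of the 3 that rose, and it was tested only through its libraries with E2/MPA. Of 16 tested genes of prostanoid synthesis, 1 (Ptgs1) rose and 0 fell in each genotype. Among 3 tested prostanoid receptors 0 passed in either genotype. The 8 tested genes of transport and inactivation gave 0 calls in cKO and 1 that fell in control organoids. Of 15 tested lipoxygenase and leukotriene genes 0 passed in cKO, and 1 rose and 1 fell in control organoids. The 1 that fell was Cysltr2, which was tested only through its libraries with vehicle.

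The genes whose pattern over the 16 libraries was most like that of each called member were found by the smallest root-mean-square difference of centred log2 values among 11854 genes. For Ptgs1 they were Ap1s2 (0.52), Ldhd (0.52) and Tsc22d3 (0.53). Those nearest to Alox15 were Ltbp4 (0.62), Mt2 (0.64) and Itga9 (0.65), and those nearest to Pla2g4a were Jrkl (0.13), Ptbp2 (0.14) and Bcap29 (0.16). Ptgs1 and its 3 nearest genes had log2 fold changes of 2.85 to 3.20 in cKO and 2.16 to 3.54 in control organoids with E2/MPA. The 3 genes nearest to Alox15 had 0.97 to 1.97 in cKO and 1.29 to 2.21 in control organoids. All were picked for likeness over these same libraries, so similar fold changes follow from the choice.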

How the data were processed

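RNA was sequenced on an Illumina NovaSeq instrument from TruSeq libraries of Trizol-extracted RNA, per the labels' protocols. The build GRCm39 and the tools HISAT2, featureCounts and DESeq2 come from the submitters' processing notes. For strand setting and annotation, the sources used here give nothing. The authors deposited 1 table in a signal unit (reads scaled by each library's size factor), and whole reads were recovered from it. Symbols and exon lengths came from GENCODE M21 (22484 genes matched, 822 not), promoters from RefSeq. Values were analysed as log2(value + 1), which understates changes of low genes. The 16509 genes that reached 10 in 4 or more libraries (6797 did not) were tested in 1 limma fit (version 3.58.1, R 4.3.3) with 4 group means, a mean-variance trend, two-sided tests and Benjamini-Hochberg adjustment over all genes. edgeR (4.0.16) and DESeq2 (1.42.0) on recovered reads, another pseudocount, no filter, other scalings, only the groups compared, a random block and left-out libraries (1 set of them added after the data were seen) were alternatives, and the fit was tested on simulated data. The 9 genes and all gene lists were chosen with earlier results of these data known. Named among the other pathway genes were those called in at least 1 comparison. Labels give no shared replicate number. Libraries whose numbers differ by 8 deviated together (correlations 0.386 to 0.746, the best match for all 8 pairs), which is a hint from the data only.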

Additional observations from a re-analysis of the deposited data

How the results depend on the processing

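The E2/MPA calls of Ptgs1 in both genotypes and of Pla2g4a and Alox15 in control organoids held under all 26 alternatives, with log2 fold changes of 2.71 to 3.38 for Ptgs1 in cKO, 3.02 to 3.49 for Ptgs1, -0.66 to -0.51 for Pla2g4a and 2.29 to 3.71 for Alox15 in control organoids. Of 724 recomputed member values 689 kept direction and side of the threshold, 9 passed newly, 0 lost a call and 26 reversed, none of them called, and the cause was not tested. These values cover E2/MPA in both genotypes for all 8 genes, but genotype and interaction only for Ptgs1, Ptgs2, Pla2g4a and Alox15. No filter, only the groups compared, the block and libraries left out of groups not compared leave the log2 fold change as it is. Such alternatives can move only the adjusted p, so the direction was bound to be kept there. The number of the 8 genes called for E2/MPA in cKO organoids, 1, became 2 with DESeq2 and 3 with the block of libraries 8 numbers apart. Leaving out M1, M4, M8, M9, M12 and M16, a choice made after the data were seen, called 2262 genes for E2/MPA in control and 2288 in cKO organoids, 593 and 1394 for genotype under vehicle and E2/MPA and 28 for the interaction; 2 of the 8 genes passed for E2/MPA in cKO organoids, 1 for genotype under E2/MPA, and Ptger4 in control organoids was -0.28. Genes called for E2/MPA in control organoids numbered 1469, against 484 with only the groups compared, 4479 with the block, 2210 without M4, M8, M12 and M16, and 759 to 2230 when single libraries were left out (759 without M10, 781 without M11, 803 without M1 and 2230 without M12). In cKO organoids 692 became 1255 with DESeq2, 3098 with the block and 362 to 827 without single libraries (362 without M13, 368 without M14, 386 without M7, 400 without M5, 419 without M15 and 454 without M8). Genotype under vehicle gave 0, against 14 with DESeq2, 1 with the block, 14 without M4, M8, M12 and M16 and 0 to 2 without single libraries. Under E2/MPA it gave 1, against 2 with TMM, 185 with DESeq2, 0 with only the groups compared, 9 without M4, M8, M12 and M16 and 0 to 10 without single libraries (10 without M12). Ptger4 in control organoids turned to -0.017 with edgeR, -0.012 with DESeq2 and -0.085 without M4, M8, M12 and M16, and ranged from -0.15 to 0.21 without single libraries. Ptgs2 between genotypes under E2/MPA, 0.055, turned to -0.073 with edgeR and -0.081 with DESeq2, and ranged from -0.28 to 0.53 without single libraries. Left-out libraries also reversed E2/MPA in cKO for Ptger4 (-0.14 to 0.093) and Slco2a1 (-0.12 to 0.24), genotype under vehicle for Ptgs1 (-0.53 to 0.14) and Alox15 (-0.73 to 0.076), genotype under E2/MPA for Pla2g4a (-0.16 to 0.013) and the interaction of Ptgs1 (-0.45 to 0.22). The labels give no shared replicate number, and the block is a random effect of libraries 8 numbers apart (consensus correlation 0.496). Depth limits Hpgd, with at most 4 reads in a library, and Ptges, with at most 100.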

Other observations

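Several eicosanoid genes outside the 9 varied widely between libraries of a group. Hpgds, the hematopoietic prostaglandin D synthase gene, had 567, 1123, 1008 and 252 normalized counts in cKO with E2/MPA, 564, 877, 618 and 127 in cKO with vehicle, 845, 2370, 1797 and 532 in control with E2/MPA, and 301, 2043, 1313 and 141 in control with vehicle. Its lowest value in each group was in M16, M8, M12 and M4, the libraries with the most stromal marker signal. Ptgis, the prostacyclin synthase gene, did the opposite, with 555, 639, 749 and 1496 normalized counts in M16, M8, M12 and M4, against 17.0 to 248 in the other 12 libraries. Alox12, the platelet-type 12-lipoxygenase gene, was likewise highest in those libraries, at 311 in M16, 360 in M8, 353 in M12 and 824 in M4.

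Alox5ap, Alox12e and Ptger2 had raised means with E2/MPA and passed with the block of libraries 8 numbers apart in at least 1 genotype, though not without it. They are a choice among such genes. Alox5, Akr1b7 and Ptgr2 in control and Aloxe3 and Ptges2 in cKO organoids also rose only with the block. Among vehicle libraries Alox5 reached 10 in M4 alone (27.2). It was thus tested only through its libraries with E2/MPA, and its call is not independent of the filter. Others fell only with it, namely Lta4h of the lipoxygenase list, Prxl2b and Akr1b8, all in control organoids. Alox5ap, the partner protein of 5-lipoxygenase, averaged 225 with E2/MPA and 111 with vehicle in cKO organoids, and 354 with E2/MPA and 175 with vehicle in control organoids (log2 fold change 0.99 in cKO, limma adjusted p = 0.125, and 1.00 in control, limma adjusted p = 0.0831). With the block its limma adjusted p was 0.00484 in cKO and 0.00286 in control organoids. Alox12e, an epidermal-type lipoxygenase gene, had 27.4 to 74.0 normalized counts with E2/MPA and 14.6 to 33.5 with vehicle in cKO organoids, and an average of 148 with E2/MPA and 58.7 with vehicle in control organoids (log2 fold change 1.02 in cKO, limma adjusted p = 0.270, and 1.52 in control, limma adjusted p = 0.0634). With the block the limma adjusted p was 0.0358 in cKO and 0.00278 in control organoids. Ptger2, another receptor of prostaglandin E2, had a log2 fold change of 1.36 in cKO (limma adjusted p = 0.248) and 0.73 in control organoids (limma adjusted p = 0.509), and with the block the limma adjusted p was 0.0338 in cKO and 0.213 in control organoids. All genes of these paragraphs were named after their values were seen, and none of them passed in the fit without the block.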
